A study of Mus musculus with 6 samples.

Results

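Interferon response and antigen presentation genes were examined in muscle stem cells (MuSCs), the Pax7-expressing stem cells that lie beneath the basal lamina of skeletal muscle fibres. The list held 49 genes, chosen by symbol: 5 nucleic acid sensors, 4 interferon receptor chains, 6 transcription factors, 2 feedback inhibitors, 20 antiviral effectors, 5 interferon-inducible GTPases and 7 genes of MHC class I presentation. Of these, 48 had a row among the 22081 genes of the table, and 46 had a mean of at least 5 normalized counts over the 6 libraries and were tested. Mx1 and Ifi44, both antiviral effectors, were below that mean, and Oas1a, a 2′-5′-oligoadenylate synthetase, had no row.

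The pathway works as a relay. Sensors of foreign or misplaced nucleic acid in the cytosol (Ifih1, Ddx58, Dhx58, Zbp1, Tmem173) drive the production of type I interferon through Irf3 and Irf7. Secreted interferon binds Ifnar1 and Ifnar2 (type I) or Ifngr1 and Ifngr2 (type II) on the same or other cells, and receptor-bound Janus kinases then activate STAT proteins. A STAT complex that includes Stat2 and Irf9 binds the interferon-stimulated response element (ISRE), STAT dimers bind the gamma-activated site (GAS), and the genes so induced encode antiviral proteins, large GTPases and the parts of the MHC class I pathway that shows peptides to T cells. Stem cells of several tissues are known to hold some interferon-induced genes at a basal level without infection.

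MuSCs were isolated fresh from adult C57BL/6 mice, with 3 libraries of the genotype label control (titled WT) and 3 of the label Taf4asKO (titled Taf4a-KO). In Taf4asKO mice both Taf4a alleles carried loxP sites (Taf4a fl/fl), and a tamoxifen-inducible Cre recombinase expressed from Pax7 (Pax7CreERT) removed a pair of exons in Pax7-expressing cells. According to the study's reporting summary, controls were littermates with the floxed alleles, with or without Cre, and mice of both sexes were used. The summary names tamoxifen treatment for Taf4asKO mice and does not state it for controls. Its controls with Cre have the genotype listed for Taf4asKO. The age, sex and control genotype of the animals behind each library were not given in the labels. Cells were sorted as SCA1-, CD45- and CD31-negative and integrin alpha-7-positive, or as positive for a Pax7-zsGreen reporter. The reporting summary gives an incomplete purity for sorted cells that were analysed again. The comparison asks which genes depend on TAF4A, a subunit of the general transcription factor TFIID, in these cells. Values are normalized counts (reads divided by a size factor per library), and they are listed below in the order of replicates 1, 2 and 3.

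Taf4 itself, counted over the whole gene, was at 613, 534 and 478 in control and at 631, 565 and 574 in Taf4asKO, a log2 fold change of 0.13 ± 0.12 (SE, adjusted p = 0.524), so the count over the gene did not check the labels and the libraries are named by them. All 8 MuSC markers were present, Pax7 at 10363 normalized counts or more in every library, but 5 of them passed the test, with Myf5 (log2 fold change -0.85), Itga7 (-0.43) and Cdh15 (-0.52) lower and Vcam1 (0.74) and Sdc4 (0.88) higher. Of the leukocyte markers, Ptprc, Adgre1, Itgam, Tyrobp and Cd3e had no row, and the other 5 summed to between 479 and 585 in control and between 701 and 949 in Taf4asKO, most of it from Lyz2 and Cd68. None of these 5 passed without the block, and with it Lyz2 was higher (1.305, adjusted p = 0.00396). The higher sum came from Lyz2, since the log2 fold changes of Cd68 (-0.03), Csf1r (-0.56) and Cd79a (-0.84) were negative. That of Fcer1g, at few counts, was 0.29. Schwann cell markers summed to between 971 and 2524 in control and between 3294 and 4014 in Taf4asKO, and 4 of 5, among them Sox10 and Cdh19, were higher. The 6 endothelial markers summed to between 880 and 1287 and between 1399 and 1725, and the 6 fibro-adipogenic progenitor markers to between 9353 and 34080 and between 20758 and 38571, in control and Taf4asKO respectively. Without the block none of the endothelial markers passed, and with it Cdh5 and Kdr were higher. Among the fibro-adipogenic markers Dpt was lower (-1.69, adjusted p = 0.000136), Pdgfra, Dcn, Col1a1 and Lum were higher with the block only, and Col1a1 made up most of the sum. Control replicate 1 was the lowest library for each of these 4 sums. Library totals ran from 12338676 to 14551732 normalized counts.

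Of the 46 tested genes, 13 were higher in Taf4asKO and 0 were lower. These were the sensors Ifih1 and Ddx58, the transcription factor Irf7, the feedback inhibitor Socs3, the effectors Isg15, Ifit1, Rsad2, Eif2ak2 and Parp14, the GTPases Gbp2 and Igtp, and the MHC class I genes B2m and H2-D1. A gene passed with a Benjamini-Hochberg adjusted p under 0.05 over all 18562 tested genes and a fold change of at least 1.3, by limma on log2(value + 1). Thus 28.3% of the tested members were higher, beside 5.93% of all tested genes, and 0 members were lower, beside 6.71% of all genes (12.6% passed in either direction). The largest fold changes were those of Isg15 (3.71-fold) and Ifit1 (2.90-fold), and the other 11 lay between 1.37-fold and 2.11-fold.

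The median log2 fold change of the members was 0.34, beside 0.0040 over all genes, and 42 of the 46 (91.3%) were above 0, beside 50.4% of all genes. In 20 members every Taf4asKO library was above every control library, which was 43.5% of members beside 16.6% of all genes. In 1 member, Dhx58, every Taf4asKO library was below every control library, beside 16.4% of all genes. At an unadjusted p under 0.05, 21 members were higher (45.7%, beside 14.6% of all genes) and 0 were lower. With the replicate block, a term for the replicate number, 18 members were higher and 0 lower. The labels do not say that the numbers pair the libraries, so calls with the block rest on an assumed pairing. The block called 9.09% of all genes higher and 8.98% lower. The 5 members added were Ifngr1, Ifit3, Mx2, Ifi35 and Gbp7.

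The count rested on the libraries used. It was 8 without control replicate 1, 8 without Taf4asKO replicate 1, 5 without Taf4asKO replicate 2 and 6 without Taf4asKO replicate 3, and 12 without control replicate 2 or 3. The count of all genes past the threshold, 2347 with every library, also fell in each fit but that without control replicate 2. It ran from 960 without Taf4asKO replicate 3 to 3121 without control replicate 2. Fewer calls with a library left out were thus not particular to the members. B2m, H2-D1, Ifit1, Irf7 and Isg15 passed in each of these 6 fits. With the mean level of the Schwann cell markers as a covariate, 3 members passed, of which 2 (H2-D1 and Irf7) were among the 13. With the endothelial markers 4 passed, of which 3 (H2-D1, Irf7 and Isg15) were among the 13, and with the fibro-adipogenic markers 11 passed, all among the 13. The count of all genes past the threshold was 646 with the Schwann cell covariate and 1143 with the endothelial one, beside 2347 without a covariate. The median log2 fold change of the members was 0.33 with either, while their median SE rose from 0.17 to 0.24 and 0.19. With the Schwann cell covariate the log2 fold changes of Gbp2 (0.67), Socs3 (0.60), Rsad2 (0.90), Ddx58 (0.55) and Parp14 (0.47) were close to those without it, that of Igtp (0.98) was larger, and those of Eif2ak2 (0.17), Ifih1 (0.31), B2m (0.36), Ifit1 (0.70) and Isg15 (1.24) were smaller. With the endothelial covariate, of the 10 members that no longer passed, Gbp2 (0.67), Socs3 (0.61), Rsad2 (0.85), Ddx58 (0.51) and Parp14 (0.48) were again close, Igtp (0.85) was larger, and Eif2ak2 (0.34), Ifih1 (0.45), B2m (0.50) and Ifit1 (1.09) were smaller. These covariates were correlated with the groups (r of 0.81, 0.65 and 0.37 over the 6 libraries, given as a description), so for the Schwann cell markers in particular group and cell makeup cannot be told apart. In bulk RNA, more cells of a type and more RNA per cell cannot be told apart either.

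**Figure D1:**
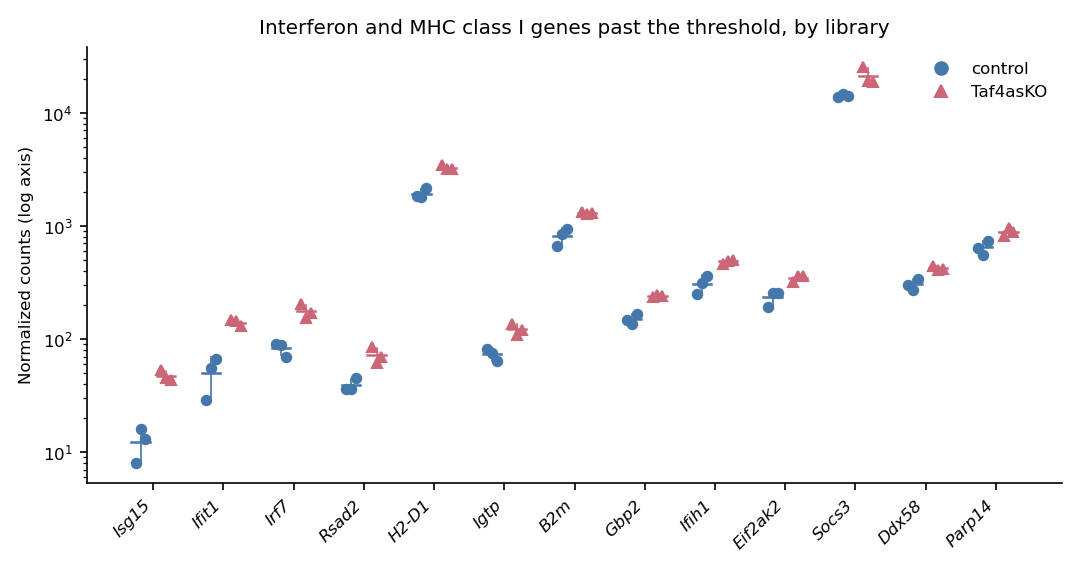
Normalized counts on a log axis of the 13 genes that were higher in Taf4asKO, in 3 control libraries (circles) and 3 Taf4asKO libraries (triangles); horizontal lines are group means and vertical lines SD (n = 3). Every Taf4asKO library lies above every control library for each gene, from Isg15 (8 to 16 against 43 to 53) on the left to Parp14 (554 to 740 against 814 to 952) on the right.

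The promoters of the members were searched for the binding motifs of the pathway. RefSeq promoter sequences (GRCm38.p6, from 250 bases before to 50 bases after the transcription start) were held for 39 of the 49 members. The ISRE letters searched (GAAA, any 2 bases, then GAAA) occurred on either strand in 18 of the 39 (46.2%), beside 4.0% of all 27025 promoters of the table. Among the 12 higher members with an entry 9 held them (75%), and among the 25 tested members with an entry that did not pass 8 held them (32.0%). The letters of the GAS, TTCNNNGAA, occurred in 13 of the 39 (33.3%), in 3 of the 12 higher members (25.0%) and in 9 of the 25 others (36.0%), beside 9.6% of all promoters. The 2 motifs overlapped in Bst2 and Ifitm3. In 4 members (Ifih1, Ddx58, Eif2ak2 and Ifitm3) the ISRE letters lay only after the start. These matches describe letters, and binding was not measured here.

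The bases before the start of 6 higher members are shown because they carry the ISRE letters, marked by capitals (TTTC, 2 bases and TTTC is the same motif read on the other strand). Positions are mm10, and each sequence runs 5′ to 3′ on the gene's strand and ends at the base before the start.
Isg15, chr4:156200819-156200968, minus strand: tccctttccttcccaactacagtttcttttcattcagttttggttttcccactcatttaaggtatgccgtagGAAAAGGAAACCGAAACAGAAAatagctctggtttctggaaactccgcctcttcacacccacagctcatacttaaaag
Ifit1, chr19:34640739-34640888, plus strand: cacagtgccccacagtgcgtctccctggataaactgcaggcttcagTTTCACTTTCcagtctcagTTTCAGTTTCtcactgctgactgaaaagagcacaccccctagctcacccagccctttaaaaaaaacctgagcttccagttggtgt
Rsad2, chr12:26456453-26456602, minus strand: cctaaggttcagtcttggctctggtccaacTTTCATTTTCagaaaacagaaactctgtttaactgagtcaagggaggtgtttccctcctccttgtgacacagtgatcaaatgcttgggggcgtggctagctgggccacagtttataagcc
Gbp2, chr3:142620513-142620662, plus strand: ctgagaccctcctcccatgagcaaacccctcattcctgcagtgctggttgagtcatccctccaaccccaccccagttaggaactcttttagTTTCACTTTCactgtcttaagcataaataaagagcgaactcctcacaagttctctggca
Igtp, chr11:58199406-58199555, plus strand: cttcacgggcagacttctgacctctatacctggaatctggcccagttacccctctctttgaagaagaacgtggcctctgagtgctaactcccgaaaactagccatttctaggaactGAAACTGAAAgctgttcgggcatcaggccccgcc
B2m, chr2:122147537-122147686, plus strand: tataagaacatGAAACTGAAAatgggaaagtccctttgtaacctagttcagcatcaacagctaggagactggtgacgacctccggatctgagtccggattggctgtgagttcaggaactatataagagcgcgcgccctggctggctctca

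In Isg15 the motif began 78, 72 and 66 bases before the start, so that 3 copies ran into each other. Ifit1 held 2 separate copies, which began 104 and 85 bases before the start. The single copies of Rsad2, Gbp2, Igtp and B2m began 120, 59, 34 and 139 bases before it, and Igtp also held the GAS letters, 45 bases before the start (not in capitals).

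The same letters stood before each of the 3 GTPase genes that did not pass. Gbp7 held 1 copy, 53 bases before the start, and Gbp3 and Irgm1, shown here, each held a pair of overlapping copies.
Gbp3, chr3:142559894-142560043, plus strand: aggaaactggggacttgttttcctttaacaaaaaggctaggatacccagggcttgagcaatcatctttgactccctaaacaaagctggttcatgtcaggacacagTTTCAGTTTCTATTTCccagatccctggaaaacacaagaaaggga
Irgm1, chr11:48871421-48871570, minus strand: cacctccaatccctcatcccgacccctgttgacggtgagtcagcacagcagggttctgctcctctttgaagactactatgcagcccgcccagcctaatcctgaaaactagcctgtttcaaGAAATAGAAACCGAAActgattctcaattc

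The exact letters of neither motif were found for 2 of the higher members, Irf7 and H2-D1, whose sequences hold no capitals. Sites that differ from these letters were not searched for. Socs3 held the GAS letters (capitals) 154 bases before its start, shown with the bases around them.
Irf7, chr7:141266425-141266574, minus strand: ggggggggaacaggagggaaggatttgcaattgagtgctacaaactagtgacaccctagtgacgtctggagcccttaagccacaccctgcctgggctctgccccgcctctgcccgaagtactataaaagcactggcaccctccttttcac
H2-D1, chr17:35262944-35263093, plus strand: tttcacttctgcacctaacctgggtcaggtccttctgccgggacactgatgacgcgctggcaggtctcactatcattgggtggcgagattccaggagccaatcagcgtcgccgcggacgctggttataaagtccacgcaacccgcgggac
Socs3, chr11:117969497-117969536, minus strand: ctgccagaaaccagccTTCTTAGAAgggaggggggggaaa

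Among the nucleic acid sensors, the 2 helicases that start signalling from viral RNA were higher and the other 3 did not pass. Ifih1 (chr2), which encodes MDA5, a sensor of long double-stranded RNA, was at 249, 311 and 363 in control and at 462, 492 and 501 in Taf4asKO, a log2 fold change of 0.67 ± 0.15 (SE, adjusted p = 0.0155). Ddx58 (chr4), which encodes RIG-I, a sensor of RNA with a 5′ triphosphate, was at 303, 273 and 340 and at 444, 406 and 413 (0.47 ± 0.12, adjusted p = 0.0341). The groups did not overlap for either helicase. Dhx58, which encodes LGP2, a related helicase without signalling domains, was at 34, 32 and 36 in control and at 20, 23 and 28 in Taf4asKO (-0.52 ± 0.27, adjusted p = 0.238). It was thus the member with the most negative value, though its interval ran up to 0.084 and it did not pass. Zbp1, a sensor of Z-form nucleic acid, and Tmem173, which encodes the adaptor STING of the DNA-sensing route, had log2 fold changes of 0.18 and 0.03, and their groups overlapped.

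The 4 receptor chains did not pass in the fit without the block. Ifngr1, the ligand-binding chain of the interferon-gamma receptor, was at 500, 657 and 704 in control and at 665, 946 and 1033 in Taf4asKO (log2 fold change 0.50 ± 0.18, adjusted p = 0.1004). Each Taf4asKO library was above the control library of its own number, although the groups overlapped, and with the replicate block Ifngr1 passed (adjusted p = 0.00521). Ifnar1, a chain of the type I receptor, was at 782, 830 and 687 and at 920, 932 and 867 (0.25 ± 0.11, adjusted p = 0.157), with no overlap between the groups. Its partner chain Ifnar2 and the signalling chain Ifngr2 had log2 fold changes of 0.04 and 0.06. All 4 chains were at 177 normalized counts or more in every library, so the RNA of both receptors was present.

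Of the transcription factors, Irf7 was higher and the other 5 did not pass. Irf7 (chr7), the factor that is itself interferon-induced and that amplifies interferon gene transcription, was at 90, 88 and 70 in control and at 203, 155 and 169 in Taf4asKO, a log2 fold change of 1.08 ± 0.18 (adjusted p = 0.00455). The lowest Taf4asKO library was well above the highest control library. Irf3, the constitutive factor that sensors activate by phosphorylation, was at 466, 427 and 460 and at 542, 572 and 586 (0.33 ± 0.10, adjusted p = 0.0634). Its groups did not overlap, and the call was missed on the adjusted p and on the fold limit. Irf1, a factor induced chiefly by interferon-gamma, was at 1513, 981 and 1307 and at 1672, 1707 and 1395 (0.35 ± 0.15, adjusted p = 0.173). The parts of the complex that binds the ISRE showed smaller values, with log2 fold changes of 0.17 for Stat2 and -0.09 for Irf9. Stat3, the main STAT of interleukin-6 signalling, had a log2 fold change of 0.06. For Stat2, Stat3 and Irf9 the sign turned on leaving out a single library.

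The 2 feedback inhibitors differed in call. Socs3 (chr11), which blocks Janus kinases bound to cytokine receptors of the gp130 type, was at 13713, 14739 and 14107 in control and at 25497, 19276 and 18579 in Taf4asKO, a log2 fold change of 0.56 ± 0.13 (adjusted p = 0.0211). Taf4asKO replicate 1 stood above the other 2, and Socs3 passed in 2 of the 6 fits with a library left out. Usp18, the protease that removes ISG15 from proteins and that damps the type I receptor, was at 37, 34 and 38 and at 42, 39 and 34 (0.07 ± 0.24, adjusted p = 0.879). At this level the interval ran up to 0.60, so an increase of the size seen for Socs3 lay inside it.

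The antiviral effectors formed the largest group, and 5 of the 17 tested were higher (beside 5.93% of all genes), with a median log2 fold change of 0.46. Isg15 (chr4:156199424-156200818), a ubiquitin-like protein that is coupled to other proteins in the antiviral state, was at 8, 16 and 13 in control and at 53, 45 and 43 in Taf4asKO. Its log2 fold change of 1.89 ± 0.32 (adjusted p = 0.0051) was the highest of the members. Ifit1 (chr19:34640871-34650009), which binds viral RNA lacking the host cap, was at 29, 55 and 67 and at 146, 143 and 131 (1.54 ± 0.28, adjusted p = 0.00736). The control libraries of Ifit1 spread widely while those of Taf4asKO lay close together, and the groups of both genes did not overlap. Rsad2, which encodes viperin, an enzyme that makes a chain-terminating nucleotide, was at 36, 36 and 45 and at 85, 61 and 69 (0.86 ± 0.23, adjusted p = 0.0364).

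Eif2ak2, which encodes the double-stranded RNA-activated kinase PKR that halts translation, was at 191, 255 and 255 in control and at 319, 358 and 363 in Taf4asKO (0.58 ± 0.15, adjusted p = 0.0297). Parp14, an ADP-ribosyltransferase, was at 640, 554 and 740 and at 814, 952 and 879 (0.46 ± 0.13, adjusted p = 0.0396). Parp14 and the sensor Ddx58 were the 2 of the 13 that did not pass under total-count or upper-quartile scaling.

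Of the other 12 tested effectors 10 had a positive log2 fold change, beside 50.4% of all genes. Ifi35, which binds the interferon-induced protein Nmi, was at 129, 93 and 122 in control and at 164, 173 and 163 in Taf4asKO (0.55 ± 0.17, adjusted p = 0.0595, with the replicate block 0.0428). It shared 290 exonic bases with Gm11626 on the opposite strand. Ifit3, which assembles with Ifit1, was at 17, 55 and 47 and at 43, 90 and 79 (0.91 ± 0.43, adjusted p = 0.199, with the block 0.0236). Each Taf4asKO library of Ifit3 was above the control library of its number, while replicate 1 was the lowest of both groups. Mx2, a dynamin-like antiviral GTPase, was at 150, 63 and 133 and at 244, 134 and 152 (0.66 ± 0.33, adjusted p = 0.218, with the block 0.0324). Here replicate 1 was the highest of both groups and replicate 2 the lowest.

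Ifit2, a relative of Ifit1 and Ifit3, had a log2 fold change of 0.37 (adjusted p = 0.230), and Oasl2, a 2′-5′-oligoadenylate synthetase-like protein, one of 0.38 (adjusted p = 0.362). The Ifitm genes encode small membrane proteins that hinder viral entry, and none of the 3 passed. Ifitm1 was at 19, 14 and 14 in control and at 24, 29 and 22 in Taf4asKO (0.65 ± 0.31, adjusted p = 0.199), with no overlap. Ifitm2 and Ifitm3 had log2 fold changes of 0.25 and 0.22 with overlapping groups. Bst2 (tetherin, which holds budding virions at the cell surface) had a log2 fold change of 0.17, the ubiquitin ligase Trim25 that assists RIG-I one of 0.12, and the exonuclease Isg20 one of -0.06. Ifi27 was at 297, 381 and 406 in control and at 287, 314 and 274 in Taf4asKO (-0.30 ± 0.14, adjusted p = 0.203). Mx1, at 1, 2 and 3 and at 6, 3 and 7, and Ifi44, at 2, 3 and 1 and at 2, 5 and 5, were too low to test.

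All 5 interferon-inducible GTPases, proteins that attack the membranes of intracellular pathogens, had positive log2 fold changes, beside 50.4% of all genes. Of these 5, 2 were higher, beside 5.93% of all genes. Gbp2 (chr3), a guanylate-binding protein, was at 147, 137 and 167 in control and at 233, 246 and 242 in Taf4asKO, a log2 fold change of 0.68 ± 0.14 (adjusted p = 0.0115). Igtp (chr11), the immunity-related GTPase IRGM3, was at 82, 75 and 64 and at 137, 109 and 121 (0.73 ± 0.18, adjusted p = 0.0295). Neither gene overlapped between the groups. Gbp7 was at 233, 287 and 303 and at 309, 408 and 369 (0.40 ± 0.15, adjusted p = 0.113, with the block 0.0386), while Gbp3, which lies between Gbp7 and Gbp2 on chr3, had a log2 fold change of 0.22 (adjusted p = 0.431). Irgm1, a regulator of the other immunity-related GTPases, was at 458, 368 and 347 and at 674, 451 and 388 (0.34 ± 0.20, adjusted p = 0.290). Taf4asKO replicate 1 of Irgm1 stood apart from the other 2, which lay within the control range.

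In MHC class I presentation, the shared light chain and 1 of the 2 heavy chains of the list were higher, and the 5 other genes did not pass. H2-D1 (chr17:35262730-35267499), a classical class I heavy chain, was at 1826, 1796 and 2148 in control and at 3432, 3157 and 3208 in Taf4asKO. Its log2 fold change of 0.77 ± 0.10 had the lowest adjusted p of the members (0.00139). B2m (chr2:122147686-122153083), the light chain of every class I molecule, was at 661, 849 and 930 and at 1335, 1275 and 1289 (0.69 ± 0.13, adjusted p = 0.00756). The lowest Taf4asKO library of each was above the highest control library. H2-K1, the other classical heavy chain, was at 1579, 1478 and 1920 and at 2106, 1884 and 1995 (0.27 ± 0.11, adjusted p = 0.145). Its groups overlapped at control replicate 3. Whether H2-D1 and H2-K1 differed from each other in their change was not tested, and reads of the 2 heavy chains that could not be placed uniquely were dropped by the authors.

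Nlrc5, the transactivator of class I genes, was at 28, 21 and 38 in control and at 54, 46 and 42 in Taf4asKO (0.72 ± 0.28, adjusted p = 0.126), with no overlap between the groups. The peptide transporter chains Tap1 and Tap2 had log2 fold changes of 0.18 and 0.25, and tapasin (Tapbp), which bridges the transporter to the heavy chain, one of 0.26. Tap2 was at 307, 298 and 297 and at 334, 353 and 390 (adjusted p = 0.184), again without overlap. Thus 4 of the 7 class I genes did not overlap between the groups and 2 passed, beside 16.6% and 5.93% of all genes.

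**Figure D2:**
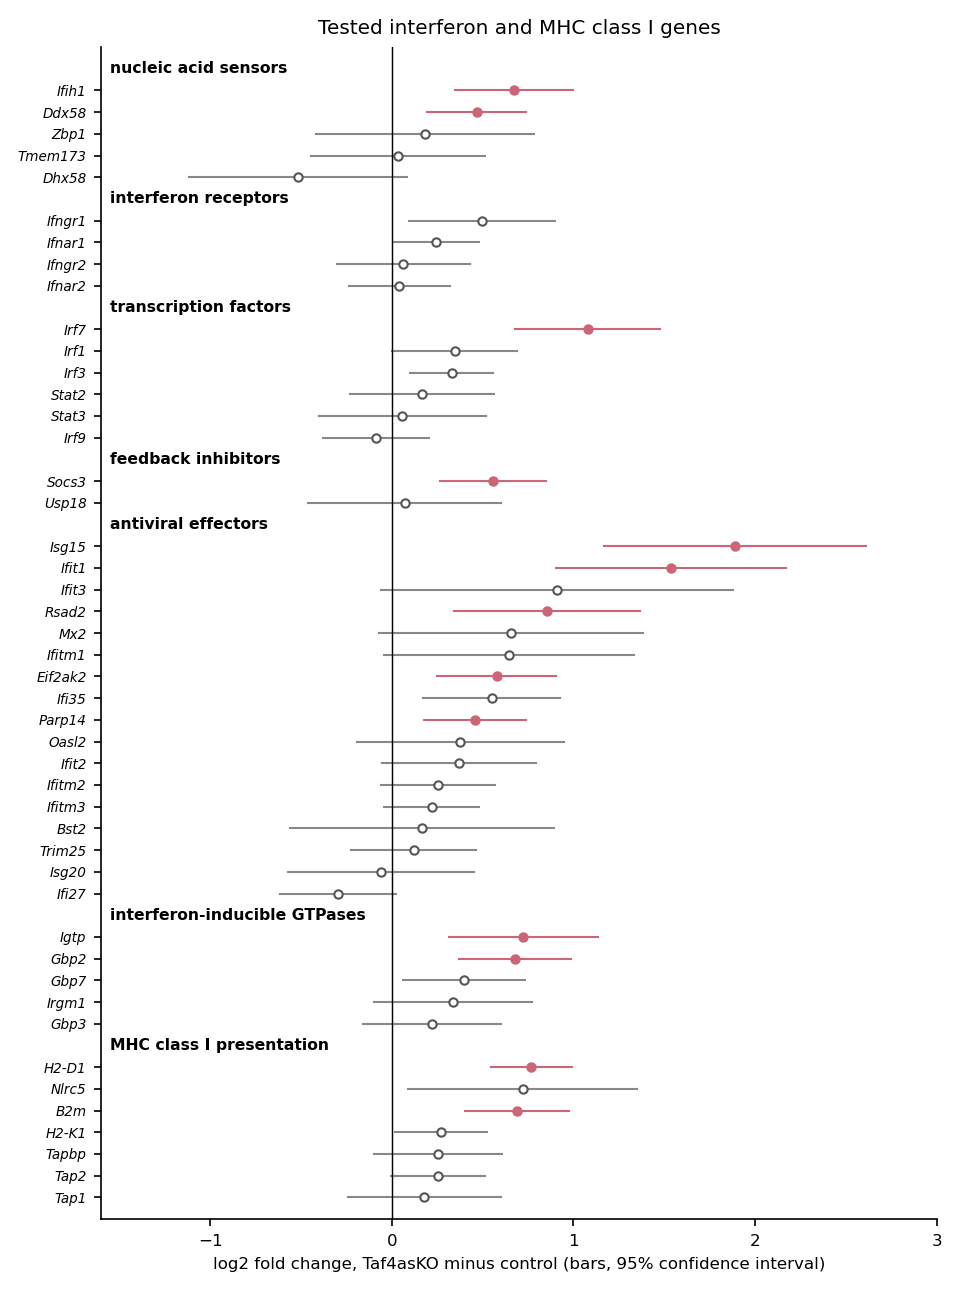
Log2 fold changes (Taf4asKO minus control, x axis) of the 46 tested genes by role, with 95% confidence intervals from limma; filled red points passed and open points did not. Of the 46 points 42 lie above 0, the 13 filled ones run from 0.46 (Parp14) to 1.89 (Isg15), and Dhx58 is the lowest at -0.52.

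Levels differed far more between genes than between the groups. Per kilobase of exon, control means were highest for Socs3 (4907 normalized counts), followed by B2m (945.7), Ifitm3 (887), H2-D1 (746) and H2-K1 (565). Isg15 (16.3), Ifit1 (19.0) and Irf7 (21.9), the 3 members with a fold change above 2, were all in the lower part of this order in control, and in Taf4asKO they reached 62.2, 52.7 and 46.5 per kilobase. Rsad2 (9.00) and Nlrc5 (3.42) were lower still in control. Mx1 and Ifi44 were below 1 per kilobase in control. Among the tested members the most abundant mRNAs per length were thus those of a feedback inhibitor, of class I presentation and of Ifitm3.

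Near-identical copies and overlapping exons limit a few values, since the authors left out reads that mapped to several places or overlapped more than 1 gene. Of 75-base windows, the read length, 41.1% in Ifit3 and 42.0% in Ifitm2 also occurred in another gene, in the former case in Ifit3b. Ifit3b, which is not among the members, was at 8, 10 and 20 in control and at 30, 30 and 23 in Taf4asKO (log2 fold change 1.16, adjusted p = 0.0763). Tapbp (18.6%) and Gbp7 (11.3%) were the other members above 10%. Part of these shares comes from overlapping exons on the same strand, with Gm45717 in Ifitm2 (268 bases), Gm43802 in Gbp7 (637), Zbtb22 in Tapbp (149) and Irgm2 in Igtp (162). On the opposite strand, Tapbp shared 904 exonic bases with Gm19412 and Tap2 shared 698 with Gm15821 and Gm20496, and their values are uncertain because the use of strand in counting is not known. Of the 13 higher members, Igtp (7.80%, with Irgm2), H2-D1 (5.56%) and Ifit1 (5.19%) had the largest shares, and Isg15, B2m, Ifih1, Ddx58, Irf7, Socs3 and Rsad2 had none.

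Of 135 other genes of the pathway, 109 had a row and 99 were tested. Of these, 13 were higher (13.1%, beside 5.93% of all genes) and 2 were lower (2.02%, beside 6.71%), and with the replicate block 21 were higher and 3 lower (beside 9.09% and 8.98% of all genes). Their median log2 fold change was 0.34, and 73.7% were above 0. None of the 11 interferon ligand genes listed had a row, so no interferon mRNA of that list was measured here.

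The wider list held 2 increases larger than that of Isg15. Irf8, an interferon-responsive factor best known from macrophages and dendritic cells, was at 104, 113 and 98 in control and at 589, 408 and 382 in Taf4asKO (log2 fold change 2.10 ± 0.18, adjusted p = 0.000132). Iigp1, an immunity-related GTPase of the family of Igtp, was at 23, 29 and 39 and at 142, 118 and 96 (1.95 ± 0.26, adjusted p = 0.00146). Both passed with any one library left out. Cxcl10, a chemokine induced by interferon-gamma, was at 21, 14 and 12 and at 73, 68 and 34 (1.79, adjusted p = 0.0109). Smaller changes were those of Slfn8 (1.25), Herc6 (0.99), Helz2 (0.65), the non-classical class I gene H2-T23 (0.62) and the receptor chain Il10rb (0.58), all higher. Adar (0.53), Samd9l (0.52) and Pias1 (0.41) were also higher, and are named although they fall outside the 12 largest changes. Jak1 and H2-DMa, the other higher genes, are given below.

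Of the kinases downstream of the receptors, Jak1, which serves both interferon receptors, was at 2123, 2235 and 2064 in control and at 3640, 2988 and 3018 in Taf4asKO (0.58 ± 0.10, adjusted p = 0.00605) and was higher. Tyk2, its partner at the type I receptor, had a log2 fold change of -0.16 (adjusted p = 0.460). The immunoproteasome subunits Psmb8 (0.75, adjusted p = 0.0577, with the block 0.0295), Psmb9 (0.79, adjusted p = 0.102) and Psmb10 (0.22, adjusted p = 0.531), which shape peptides for class I, did not pass in the fit without the block.

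Antigen presentation by MHC class II was read at low levels. H2-Aa and H2-Ab1, the class II chains expressed by this strain, had no row. H2-DMa, a chain of the peptide-loading factor, was at 9, 9 and 17 in control and at 43, 33 and 25 in Taf4asKO (1.48, adjusted p = 0.0266). Cd74, the invariant chain, was at 12, 8 and 9 and at 1, 2 and 1 (-2.20, adjusted p = 0.0163), so it was lower, at few counts in both groups. Rfx5, a factor of class II and class I promoters, was at 451, 453 and 447 and at 248, 285 and 275 (-0.74, adjusted p = 0.00299), and it was lower in each fit with a library left out. Nlrc5 and Rfx5, which act together at class I promoters, had values of opposite sign, of which that of Rfx5 passed.

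**Figure D3:**
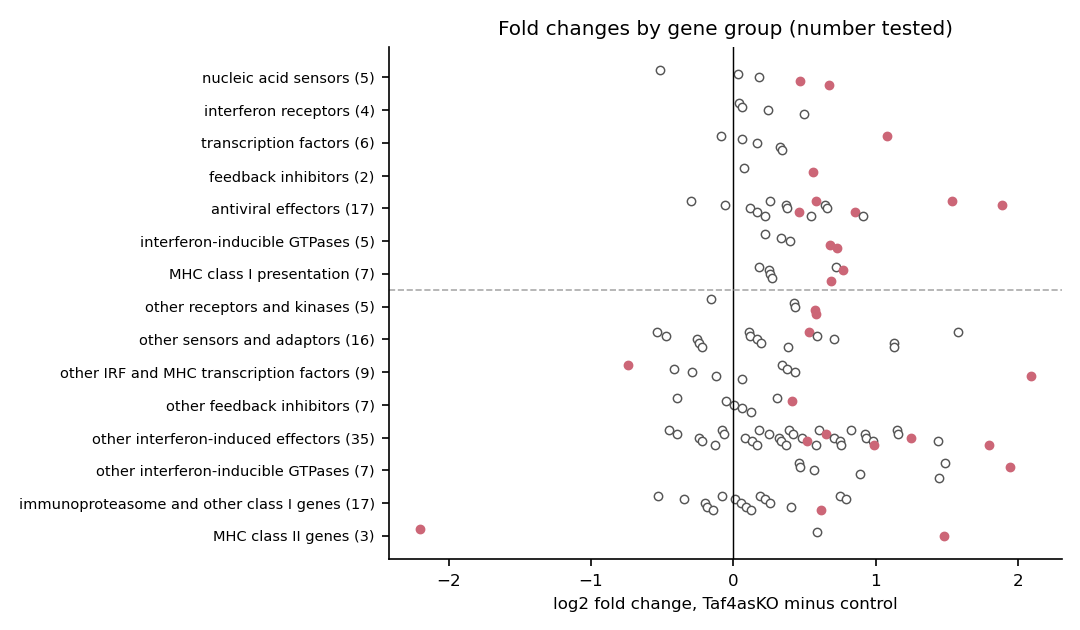
Log2 fold changes (Taf4asKO minus control, x axis) of each tested gene by group, members above the dashed line and the other pathway genes below it; filled red points passed, and the number tested is in brackets. The 7 other interferon-inducible GTPases all lie above 0 (median 0.89), whereas the 17 immunoproteasome and other class I genes centre near 0 (median 0.09).

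Summed over each role, the Taf4asKO libraries lay above the control libraries in every group but the transcription factors. Such sums follow their most abundant genes and do not show a change of the whole group. Socs3 made up nearly all of the feedback inhibitor sum. Ifih1 and Ddx58 made up most of the sensor sum, and B2m, H2-D1 and H2-K1 most of the class I sum. Sensors summed to between 733 and 895 normalized counts in control and between 1047 and 1110 in Taf4asKO, and class I genes to between 5128 and 6284 and between 7672 and 8257. Effectors summed to between 3475 and 4399 and between 4716 and 5117, and GTPases to between 1015 and 1054 and between 1291 and 1506. The transcription factors overlapped, at 4357 to 6645 and 5492 to 7339. The endothelial, Schwann cell and leukocyte marker sums did not overlap between the groups either, and no covariate was fitted for the leukocyte markers, whose part in the differences of the members was not tested. Lyz2 carried the higher leukocyte sum, and Tek made up most of the endothelial sum in every library.

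**Figure D4:**
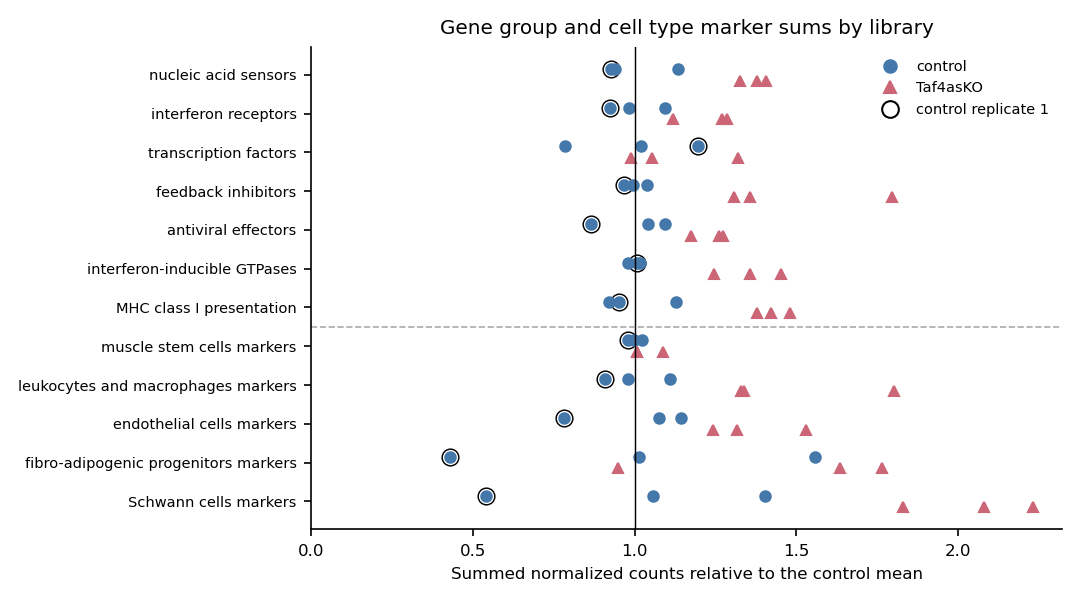
Summed normalized counts of each role group (above the dashed line) and of each cell type marker list (below it), divided by the control mean (x axis), in 3 control libraries (circles, replicate 1 ringed) and 3 Taf4asKO libraries (triangles). The class I and sensor sums of the Taf4asKO libraries lie above those of control, the MuSC marker sum lies near 1 in both groups (35925 to 37449 and 36906 to 39879), although 3 of its 8 genes were lower and 2 higher, and control replicate 1 is low for the Schwann cell, fibro-adipogenic and endothelial markers.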

How the data were processed

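Total RNA of sorted MuSCs was sequenced from low-input stranded libraries (75-base single-end reads). Per the labels and the study's methods, the authors trimmed reads with Trimmomatic 0.39, aligned them to mm10 with STAR 2.6.0c, removed reads that mapped to several places, counted exonic reads with featureCounts 1.6.0 without reads that overlapped more than 1 gene, and normalized with DESeq2 1.14.1. Use of the strand in counting is not given in the sources used here. The deposited values are therefore a score, normalized counts that the authors rounded to whole numbers, and not raw reads. The table held 0 columns without a sample. The depth of each library, worked out from gaps in its whole numbers, was about 10.6 M to 17.6 M counted reads, and genes at few counts are the least precise.

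Genes with a mean of at least 5 entered a two-sided limma-trend fit (limma 3.58.1, R 4.3.3) on log2(value + 1), which understates the fold changes of low genes, without covariates. Intervals are 95%. A gene passed at an adjusted p under 0.05 and at least 1.3-fold, the limits of the study's methods. The script was tested on simulated data. The study's methods speak of biological replicates in general, but the labels tie no library to an animal, so p-values measure the spread between these libraries. No 2 libraries of a group were duplicates. Deviations from the group means correlated between same-numbered libraries (0.235, 0.126 and 0.150). The labels state no pairing, and 3 libraries per group allow few pairings, so these correlations cannot settle whether the numbers pair the libraries. A second fit took the number as a block on that assumption. Alternatives covered scaling, pseudocount, filters, limits, shrinkage, limma-voom on estimated reads, each library left out and, chosen after seeing the data, 3 marker covariates.

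All 49 members are named by role. Of the other pathway genes, the 12 with the largest change among those that passed are named, and Jak1, Tyk2, Psmb8, Psmb9 and Psmb10 in any case. Some genes are not reported here. Members, lists and rules were chosen with earlier results of these data known. Exon lengths and shared 75-base windows came from GENCODE M21, and promoters from RefSeq. Motifs were searched on both strands. Figures were drawn with matplotlib 3.10.9.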

Additional observations from a re-analysis of the deposited data

How the results depend on the processing

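The count of 13 members fell to 3 with a 2-fold limit (Isg15, Ifit1 and Irf7), to 5 with an adjusted p limit of 0.01, to 3 with the Schwann cell marker covariate and to 4 with the endothelial one, and ran from 5 to 12 with a library left out. Under the other alternatives it lay between 11 and 18, and 0 members were lower under each alternative. The median log2 fold change of the members, 0.34, was 0.30 under upper-quartile scaling, 0.33 when ribosomal, mitochondrial and abundant genes were left out of the scaling, 0.31 with the fibro-adipogenic covariate, 0.33 with the Schwann cell and with the endothelial covariate, and 0.30 to 0.45 with a library left out. The replicate block raised the other pathway genes that passed from 15 to 24 (21 of them higher), raised the calls over all genes, and among the members changed the calls named in the report and no other.

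The 15 other pathway genes became 6 (5 higher, 1 lower) with the 2-fold limit, 4 (3 and 1) with the adjusted p limit of 0.01, 5 (4 and 1) with the Schwann cell covariate and 9 (7 higher) with the endothelial one, and 5 to 19 with a library left out (4 to 16 higher, 1 to 3 lower). With a mean of at least 50, 1 of the 2 lower genes was left, since Cd74 was not tested. The count of all genes past the threshold, 2347, was 850, 876, 646 and 1143 under the same 4 alternatives and ran from 960 to 3121 with a library left out.

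The sign of a log2 fold change turned for members that had not passed. With the Schwann cell covariate, Ifnar2 was at -0.093, Ifngr1 at -0.022, Ifngr2 at -0.20, Irf9 at 0.14, Ifit2 at -0.17, Ifit3 at -0.74, Isg20 at 0.12, Oasl2 at -0.31, Bst2 at -0.22, Ifitm2 at -0.061, Trim25 at -0.38 and Gbp3 at -0.14. With the endothelial covariate, Ifnar2 was at -0.039, Ifngr2 at -0.083, Irf9 at 0.093, Ifit3 at -0.015, Isg20 at 0.11, Oasl2 at -0.079, Bst2 at -0.16 and Trim25 at -0.16. With the fibro-adipogenic covariate Bst2 was at -0.011 and Trim25 at -0.00088, and under upper-quartile scaling Tmem173 was at -0.0044. With a library left out, Tmem173 ran from -0.15 to 0.24, Ifngr2 from -0.033 to 0.22, Irf9 from -0.18 to 0.0078, Stat2 from -0.014 to 0.31, Stat3 from -0.15 to 0.24, Isg20 from -0.18 to 0.059, Bst2 from -0.056 to 0.50 and Trim25 from -0.014 to 0.29. The causes were not tested, except that a stricter limit leaves fewer calls by construction. Over the tested members and all alternatives, 794 of 913 values kept their sign and their side of the threshold. Low values limit Ifitm1, Dhx58, Isg15, Zbp1, Bst2, Usp18 and Nlrc5, the tested members with the lowest means.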

Other observations

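Within the control group, replicate 3 held the highest value in 24 of the 46 tested members and the lowest in 8, where over all tested genes it was highest in 29.8% and lowest in 32.9% (ties counted for each library). Control replicate 1 was lowest in 19 members and highest in 14, beside 34.9% and 31.2% of all genes. Control replicate 2 was lowest in 21 and highest in 9, beside 36.2% and 42.3% of all genes. Among the Taf4asKO libraries, replicate 1 was highest in 22 members, beside 39.5% of all genes, and replicates 2 and 3 in 13 and 11, beside 33.7% and 31.7%. Socs3, Irf7, Rsad2, Mx2, Irgm1 and, outside the members, Irf8, Iigp1, Helz2 and Jak1 had their highest value in Taf4asKO replicate 1, while Ifih1, Eif2ak2, Gbp2 and Ifngr1 had their lowest there.

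With the replicate block, 8 other pathway genes passed as higher beyond the 13 given above. They were the RNA sensor Tlr3, the kinase Jak2, the effectors Slfn5, Sp100 and Phf11d, the GTPases Gbp9 and Irgm2, and the immunoproteasome subunit Psmb8. Gbp9 was at 10, 33 and 36 in control and at 51, 85 and 67 in Taf4asKO (log2 fold change 1.49, adjusted p with the block 0.00624). Lap3, an aminopeptidase, was the additional lower gene, at 343, 492 and 351 and at 282, 294 and 277 (-0.45, adjusted p with the block 0.0317). These genes were chosen by their calls under the block, after their values were seen.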
